A study of Mus musculus with 4 samples.

Results

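In the liver of mice given Concanavalin A (ConA) and the dioxin TCDD, some T and B lymphocytes carried much RNA of Rbm3. No RNA molecule of Cd52 was captured from them. Rbm3 encodes a cold-inducible RNA-binding protein, and Cd52 a short glycoprotein anchored to the surface of lymphocytes. These Rbm3-high, Cd52-negative lymphocytes were chosen from the ConA+TCDD library by measured values. A cell needed at least 2000 UMIs (unique molecular identifiers, each counting 1 captured RNA molecule), at most 10% of UMIs from mitochondrial genes, and either at least 1 UMI of Cd3d, Cd3e and Cd3g together (T) or at least 3 UMIs of Cd79a, Cd79b and Ms4a1 together (B). It further had 0 UMIs of Cd52 and at least 1000 CPM of Rbm3, where CPM is the UMI count of a gene per 1000000 UMIs of the cell or, for a set of cells, of all its cells summed. Of 1880 cells in the library 879 were lymphocytes by these limits, and 147 of them were Rbm3-high and Cd52-negative. These were 128 of 605 T lymphocytes and 19 of 252 B lymphocytes, while none of the 22 cells that met both the T and the B limit was among them. The other 477 T and 233 B lymphocytes of the same library were the cells for comparison.

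ConA is a lectin from plants that activates T cells and brings on hepatitis in mice, and TCDD and FICZ are ligands of the aryl hydrocarbon receptor (AhR), a transcription factor that ligands activate inside the cell. Mononuclear cells were isolated from the livers of C57BL/6 mice of 8 to 10 weeks that were untreated (Naïve) or had received ConA with vehicle (ConA+Veh), ConA with TCDD (ConA+TCDD) or ConA with FICZ (ConA+FICZ), and the ConA groups were sampled 24 hours after ConA. Each group was 1 library of the 10x Genomics 5′ assay, so conditions had no replicates, no test between them was made, and a treatment cannot be told apart from its library. All intervals below are exact 95% intervals, the upper limit given beside a count of 0 is a floor of 3 counts, and both cover counting error only. The 4 libraries held 9300 cells and 5952445 UMIs in Naïve, 19252211 in ConA+Veh, 12077209 in ConA+TCDD and 16017797 in ConA+FICZ. The ConA+TCDD library shared 4, 6 and 6 cell barcodes with the Naïve, ConA+Veh and ConA+FICZ libraries, none of them from a Rbm3-high, Cd52-negative cell.

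RBM3 and its relative CIRBP are RNA-binding proteins that cells make in larger amounts under mild cold and other forms of stress. Metallothioneins 1 and 2, encoded by Mt1 and Mt2, are small cysteine-rich proteins that bind zinc and copper, and their genes are switched on by the metal-sensing factor MTF1, by glucocorticoids and by oxidative stress. CD52 is found on nearly all mature lymphocytes, and its function there is not well understood. On the GRCm38 assembly, with GENCODE annotation, Rbm3 lies at chrX:8138975-8145880 (minus strand), Cd52 at chr4:134082448-134095082 (minus), Cirbp at chr10:80165985-80172786 (plus), and Mt2 and Mt1 next to each other at chr8:94172664-94173568 and chr8:94179082-94180327 (both plus). All are protein-coding genes.

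The T label rested on few molecules. The 128 T cells held a median of 3 UMIs of the Cd3 genes against 13 in the other T cells, and 23 of them held a single one. A UMI of the T cell receptor constant genes Trac, Trbc1 or Trbc2 was present in 77.3% (69.1 to 84.3) of them against 89.5% (86.4 to 92.1) of the other T cells. Trac was close in level, with 213 and 252 CPM, as was Trbc1, with 96.8 and 117 CPM. Trbc2 was lower, at 95.4 (74.1 to 121) against 165 (155 to 176) CPM. The T cell marker Cd5 was also lower, at 23.8 (13.9 to 38.2) against 67.4 (61.0 to 74.4) CPM. Lck, the kinase bound to the CD4 and CD8 co-receptors, was at 88.4 and 277 CPM. Only 5 of the 128 cells had 1 Cd3 UMI and no receptor constant UMI. Their depth was lower, with a median of 5328 UMIs and 1514 genes per cell against 9225 UMIs and 2354 genes, and the mitochondrial share was similar, with medians of 2.53% and 2.41%. A T cell receptor beta variable segment was detected in 73 of the cells, in which 18 different segments occurred, and the most frequent, Trbv13-2 in 18 cells, was also the most frequent among the other T cells (76 of 371 cells with a segment). The 19 B cells held a median of 4 UMIs of Cd79a, Cd79b and Ms4a1 against 20, and 3225 UMIs per cell against 5247.

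Most markers of the other cell types counted here were scarce. Markers of dendritic and plasma cells are not given. Among the T cells the 10 NK cell markers summed to 57.5 CPM against 158 CPM in the other T cells, with Klrk1 the most abundant and 3 markers at 0, and the 10 mononuclear phagocyte markers to 7.01 against 29.0 CPM, with 6 at 0. The 6 neutrophil markers summed to 14.0 against 238 CPM, S100a8 leading and 3 at 0, and all 10 hepatocyte markers were at 0 against 8.52 CPM. The other T cells held 792 UMIs of S100a8, of which 38 lay in the 402 cells with at least 3 Cd3 UMIs. Its log2 ratio with that limit was 0.41 (-1.54 to 1.88). The higher neutrophil sum thus lay mostly in comparison cells with 1 or 2 Cd3 UMIs. Endothelial markers (8.42 against 7.32 CPM, 5 of 6 at 0) and platelet markers (4.21 against 6.13 CPM, 4 of 5 at 0) were low in both sets, with 6 and 3 UMIs in the Rbm3-high, Cd52-negative cells. The 6 erythroid markers summed to 1891 against 277 CPM, but 2 cells with at least 10 globin UMIs carried most of these. Cd74 and Irf8, which are not limited to T cells, were higher in the T cells, each at a log2 ratio of 1.02. With at least 3 Cd3 UMIs required, Cd74 was at -0.84 (-1.55 to -0.21) on 21 UMIs in 70 cells. In the B cells the NK, neutrophil and endothelial markers had 1, 2 and 1 UMIs, the phagocyte, hepatocyte and platelet markers were all at 0, and the erythroid markers had 9 UMIs. Scrublet, a caller of doublets (droplets with more than 1 cell), marked 2 of the 1880 cells, neither of which was Rbm3-high and Cd52-negative, and with so few calls it did not work as a filter. The part of depth, cell cycle and other cell types in the differences below was not tested beyond the comparisons given.

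Cells within these limits were most frequent in the ConA+TCDD library. They made up 21.2% (17.97 to 24.6) of its T lymphocytes, against 6 of 360 (1.67%, 0.614 to 3.59) in Naïve, 0 of 688 in ConA+Veh, which at 3 counts allows a share of up to 0.436%, and 16 of 502 (3.19%, 1.83 to 5.12) in ConA+FICZ. Of the B lymphocytes they made up 7.54% (4.60 to 11.5) in ConA+TCDD, 0.849% (0.276 to 1.97) in Naïve, 0 of 580 in ConA+Veh, up to 0.517%, and 0.882% (0.287 to 2.05) in ConA+FICZ. Because an absent Cd52 UMI is likelier in a shallow cell, every cell was also thinned to 2000 UMIs and the limits applied again. The T shares were then 3.45% in Naïve, 1.79% in ConA+Veh, 25.6% in ConA+TCDD and 8.08% in ConA+FICZ, and the B shares 2.39%, 1.002%, 8.80% and 2.70%. The limits were set on the ConA+TCDD library with its values known, so its rank among the libraries is part of that choice. The plot of Rbm3 against Cd52 in each T lymphocyte shows the cells of the 4 libraries.

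**Figure D1:**
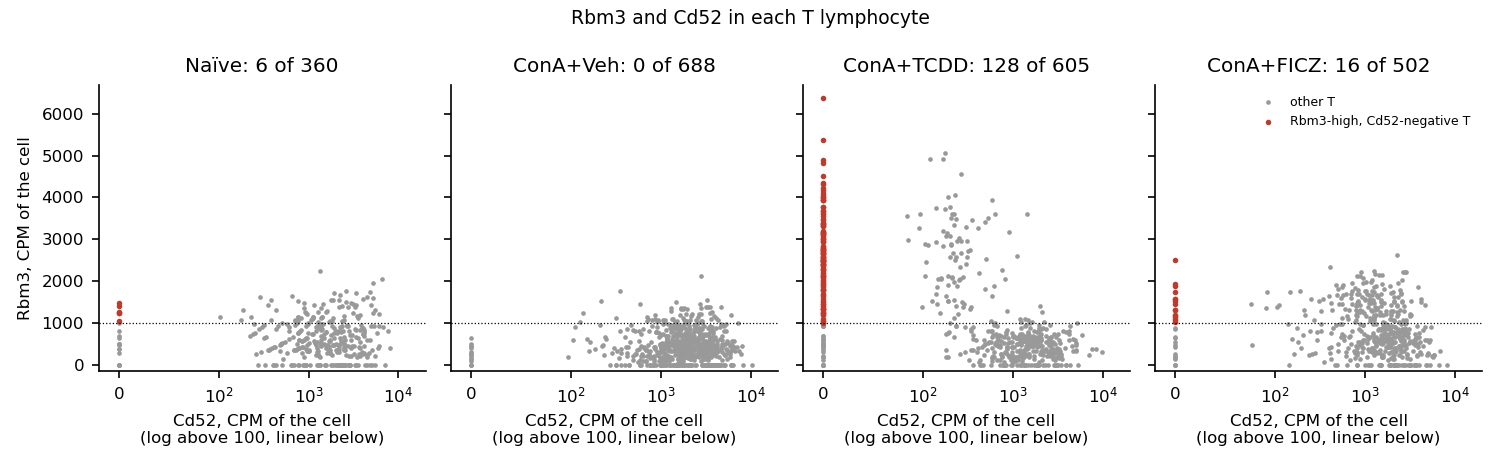
Each point is 1 T lymphocyte, with Cd52 on the x axis (CPM of the cell, logarithmic above 100 and linear below) and Rbm3 on the y axis (CPM of the cell), in 1 panel per library. Red points at Cd52 of 0 and above the dotted line at 1000 CPM of Rbm3 number 128 of 605 in ConA+TCDD, 6 of 360 in Naïve, 0 of 688 in ConA+Veh and 16 of 502 in ConA+FICZ, and those of ConA+TCDD reach up to 6366 CPM.

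High Rbm3 was about as frequent in ConA+FICZ as in ConA+TCDD, whereas high Rbm3 without a Cd52 UMI was not. At least 1000 CPM of Rbm3 was reached by 38.2% of T lymphocytes in ConA+TCDD, 37.3% in ConA+FICZ, 22.5% in Naïve and 8.72% in ConA+Veh. Among them the median Rbm3 of Cd52-negative and Cd52-positive cells was 2589 and 2465 CPM in ConA+TCDD, against 1383 and 1479 CPM in ConA+FICZ. The share of cells without a Cd52 UMI among these Rbm3-high T cells was 55.4% (48.8 to 61.9) in ConA+TCDD, 8.56% (4.97 to 13.5) in ConA+FICZ, 7.41% (2.77 to 15.4) in Naïve and 0 of 60 in ConA+Veh, up to 5%. Among T cells under 1000 CPM of Rbm3 it was 8.82% (6.15 to 12.2) in ConA+TCDD and between 2.39% and 5.38% in the other libraries. After thinning to 2000 UMIs the shares in Rbm3-high and Rbm3-low T cells were 60.7% and 19.1% in ConA+TCDD, 17.3% and 9.84% in ConA+FICZ, 9.23% and 11.01% in Naïve and 7.05% and 7.17% in ConA+Veh. Rbm3 and Cd52 are the values that chose the cells, so these shares are a description. The B lymphocytes of ConA+TCDD showed the same order, with 38.0% (24.7 to 52.8) of 50 Rbm3-high and 4.95% (2.40 to 8.92) of 202 Rbm3-low cells at 0 Cd52 UMIs, and 26.0% (16.5 to 37.6) and 9.79% (5.46 to 15.9) after thinning.

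**Figure D2:**
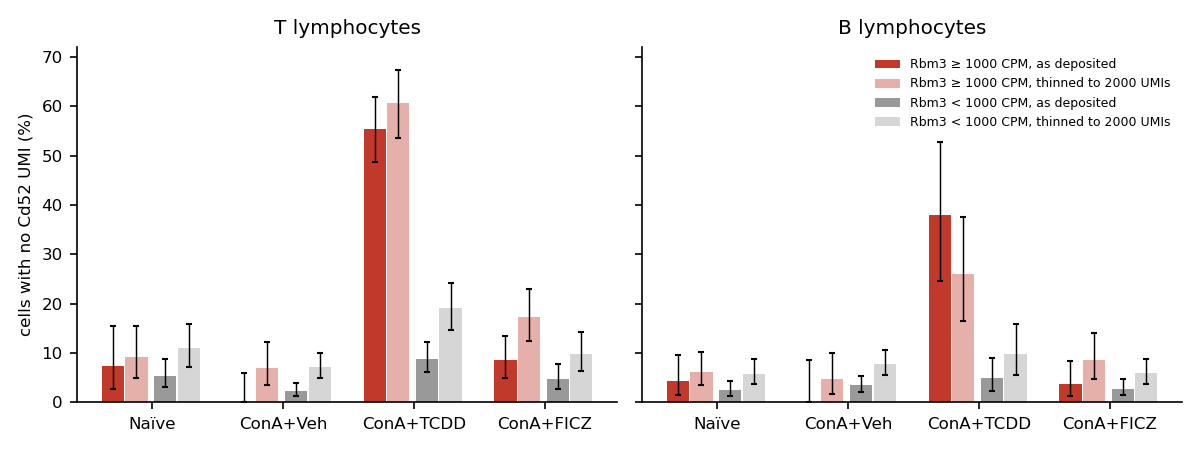
Bars give the share of lymphocytes with no Cd52 UMI (y axis, %) in the 4 libraries (x axis), T at the left and B at the right, red for cells of at least 1000 CPM of Rbm3 and grey for the rest, with lighter bars after thinning to 2000 UMIs and exact 95% binomial intervals. The red bars of ConA+TCDD, at 55.4% in T and 38.0% in B, are the highest of the libraries, and ConA+Veh has red bars of 0 before thinning.

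The limits cut through continuous ranges. In the 128 T cells Rbm3 ran from 1001 to 6366 CPM with a median of 2589, and the B cells ran from 1131 to 5079 CPM with a median of 2886. Just inside the Rbm3 limit were T cells of 1001, 1038 and 1042 CPM. Just outside, also without a Cd52 UMI, were cells of 943, 951 and 969 CPM. For B the nearest cells were at 1131, 1620 and 1860 CPM inside and 618, 859 and 888 CPM outside. Of the 231 Rbm3-high T cells 128 had 0 Cd52 UMIs, 57 had 1, 15 had 2, 8 had 3 and 23 had 4 or more. Most of the Rbm3-high T cells left out were therefore within 1 or 2 molecules of the limit.

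Among genes of at least 100 UMIs, Mt2 and Mt1 ranked highest in the T cells by the bound of the 95% interval nearest to 0. Over all 7258 genes with at least 50 UMIs, 5.7% were at least 2-fold higher and 21.9% at least 2-fold lower than in the other T cells, with a median log2 ratio of -0.19. Mt2 stood at 617 CPM (561 to 678) against 48.5 (43.1 to 54.5), a log2 ratio of 3.67 (3.45 to 3.89), and Mt1 at 1949 CPM (1848 to 2054) against 229 (217 to 242), a log2 ratio of 3.09 (2.98 to 3.20). Both genes were thus about an order of magnitude higher per UMI. These were the only 2 genes past 2-fold among the 13 of the metallothionein and zinc transporter list that could be compared. Mtf1, which encodes the metal-sensing transcription factor, was at 26.7 against 19.1 CPM (log2 ratio 0.48, -0.30 to 1.19), and the zinc transporter Slc30a5 at 21.04 against 20.1 CPM (0.07, -0.82 to 0.85). Over all T lymphocytes, Mt1 was at 144 CPM in Naïve, 152 in ConA+Veh, 416 in ConA+TCDD and 225 in ConA+FICZ, and Mt2 at 57.6, 20.8, 110 and 46.6 CPM.

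The promoter windows of both genes are shown because both genes were far higher in these cells. They are RefSeq windows on GRCm38.p6, plus strand, from 250 bases before to 50 bases after the annotated start, chr8:94178839-94179138 for Mt1 and chr8:94172368-94172667 for Mt2. Capitals mark matches on either strand to TGCACNC or TGCGCNC, the core of the metal response element that MTF1 binds.
Mt1: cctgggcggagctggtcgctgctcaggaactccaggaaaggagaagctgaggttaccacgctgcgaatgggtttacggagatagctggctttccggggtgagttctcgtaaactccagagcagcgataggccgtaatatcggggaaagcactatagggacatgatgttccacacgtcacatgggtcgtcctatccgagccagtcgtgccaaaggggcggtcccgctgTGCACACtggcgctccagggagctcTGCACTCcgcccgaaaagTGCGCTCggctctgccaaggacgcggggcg
Mt2: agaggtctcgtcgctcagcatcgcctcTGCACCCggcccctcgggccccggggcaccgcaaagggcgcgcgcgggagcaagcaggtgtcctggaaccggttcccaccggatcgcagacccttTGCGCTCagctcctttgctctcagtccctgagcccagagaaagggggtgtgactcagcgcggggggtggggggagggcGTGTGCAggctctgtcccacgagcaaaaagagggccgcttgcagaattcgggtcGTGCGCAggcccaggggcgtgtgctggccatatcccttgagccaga
The Mt1 window held 3 matches and the Mt2 window 4. The core is short, and 25.7% of 32851 RefSeq windows of this length held at least 1 match, 1.97% at least 3 and 0.517% at least 4. With any base at the fourth position (TGCNCNC), the windows held 3 and 6 matches, and 51.0% of all windows held at least 1. The core of the xenobiotic response element, TNGCGTG, to which the ligand-bound AhR binds, was found on neither strand of either window and in 5.07% of all windows. A match or its absence describes only these letters in this window.

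Metallothionein RNA was uneven among the T cells. A Mt1 UMI was found in 60 of the 128 cells (46.9%, 38.0 to 55.9), a Mt2 UMI in 47, and both in 42. After thinning to 2000 UMIs the share with Mt1 was 39.8% (31.3 to 48.9) against 15.1% (12.002 to 18.6) of the other T cells, and with Mt2 28.9% (21.2 to 37.6) against 5.24% (3.42 to 7.64). For scale, Mt1 was found in 3.97% of all B lymphocytes of the library after the same thinning. Within the 128 cells the 10 cells with the most Mt1 held 70.3% of its UMIs, and 1 cell with 293 UMIs held 21.1%, so most cells had no Mt1 molecule detected while a few had very many. Gadd45b and Ccr7, described next, were spread more widely, with 28.4% and 24.8% of their UMIs in the top 10 cells, whereas the top 10 held 73.7% for Ctla2a.

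Cirbp separated the cells less. It was at 108 CPM (85.3 to 135) against 43.8 (38.6 to 49.5) in the other T cells, a log2 ratio of 1.30 (0.92 to 1.68). In the library, 103 T cells had at least 1000 CPM of Rbm3 and a Cd52 UMI. Cirbp was close to this in them, at 104 CPM (log2 ratio 0.05, -0.40 to 0.50). By point estimate it was lower, at 39.4 CPM, in the 33 T cells with no Cd52 UMI and less Rbm3. These 33 cells held 152118 UMIs in all, so this level rests on few molecules. Over all T lymphocytes Cirbp was highest in Naïve, at 131 CPM, against 30.7 in ConA+Veh, 50.7 in ConA+TCDD and 33.6 in ConA+FICZ. The level in all Naïve T cells, few of which met the limits, was thus no lower than that of the Rbm3-high, Cd52-negative cells.

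The other genes ranked highest have diverse roles. Ctla2a, which encodes an inhibitor of cysteine proteases, was at 497 against 106 CPM (log2 ratio 2.23, 2.03 to 2.42). Gadd45b, an NF-kB and stress-induced regulator of MAP kinase signalling, was at 439 against 105 CPM (2.07, 1.86 to 2.26). Sytl3 (2.19), Ramp3 (2.31), Pofut2 (2.08) and Ginm1 (2.05) completed the 12 genes ranked highest together with 4 globin genes and the metallothioneins. The product of Sytl3 acts in vesicle traffic and that of Ramp3 as a partner of calcitonin-family receptors. In cells with a Cd8a or Cd8b1 UMI, the log2 ratios of Ctla2a and Ramp3 were -0.24 (-1.32 to 0.66) on 10 UMIs of the 28 Rbm3-high, Cd52-negative cells and -0.18 (-3.27 to 1.76) on 2, too few for a direction. With cells of at least 10 globin UMIs left out, a choice made after the data had been seen, Hbb-bs went from 2.89 to 0.33 (-0.45 to 1.03), Hbb-bt from 2.43 to -1.69 and Hba-a1 from 2.49 to 0.21 (-1.76 to 1.72). Hba-a2 went from 2.78 to 1.79 (0.28 to 3.13), on 7 and 17 UMIs.

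Of 19 genes of NF-kB signalling compared, 8 were at least 2-fold higher and none lower (median log2 ratio 0.85). They included the inhibitor gene Nfkbia at 1090 against 463 CPM (1.23, 1.12 to 1.35) and the subunit gene Nfkb1 (1.24, 0.98 to 1.49). Cflar, which restrains caspase 8, was at 1.51 (1.09 to 1.92). Without cycling cells, in the comparison given below, Nfkbia (0.48), Nfkb1 (0.76) and Cflar (0.89) were under 2-fold. Among 19 genes of the IL-2 receptor, STAT5 and SOCS list 4 were higher and 1 lower. Il2ra, the high-affinity chain of the IL-2 receptor, was at 233 against 87.9 CPM (1.41, 1.14 to 1.66), Stat5a, which transmits its signal, at 1.87 (1.51 to 2.23) on the log2 scale, and Cish, a STAT5 target that dampens it, at 1.63 (1.30 to 1.95). Jak3, the kinase of the common gamma chain, was lower (-1.79, -2.87 to -0.89). The transcription factor gene Irf4 (1.75), the survival gene Bcl2l1 (1.79) and the TNF receptor family gene Tnfrsf25 (2.26) were higher as well. Their lists went both ways. Of 21 lineage transcription factor genes 3 were higher and 4 lower (median -0.40), and of 11 BCL2 family genes 2 and 2 (median 0.46). Of 11 genes of the TNF receptor family and its ligands 4 were higher and 1 lower (median -0.28). In each of these lists the share lower was no larger than the 21.9% of all genes. The share higher was above the 5.7% of all genes, on few genes. Ccr7, the receptor for entry into lymph nodes, was at 1404 against 579 CPM (1.28, 1.18 to 1.38), while the gut-homing integrin gene Itgb7 (-2.79) was lower. In the list of naïve and homing genes 2 of 23 were higher and 8 lower.

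**Figure D3:**
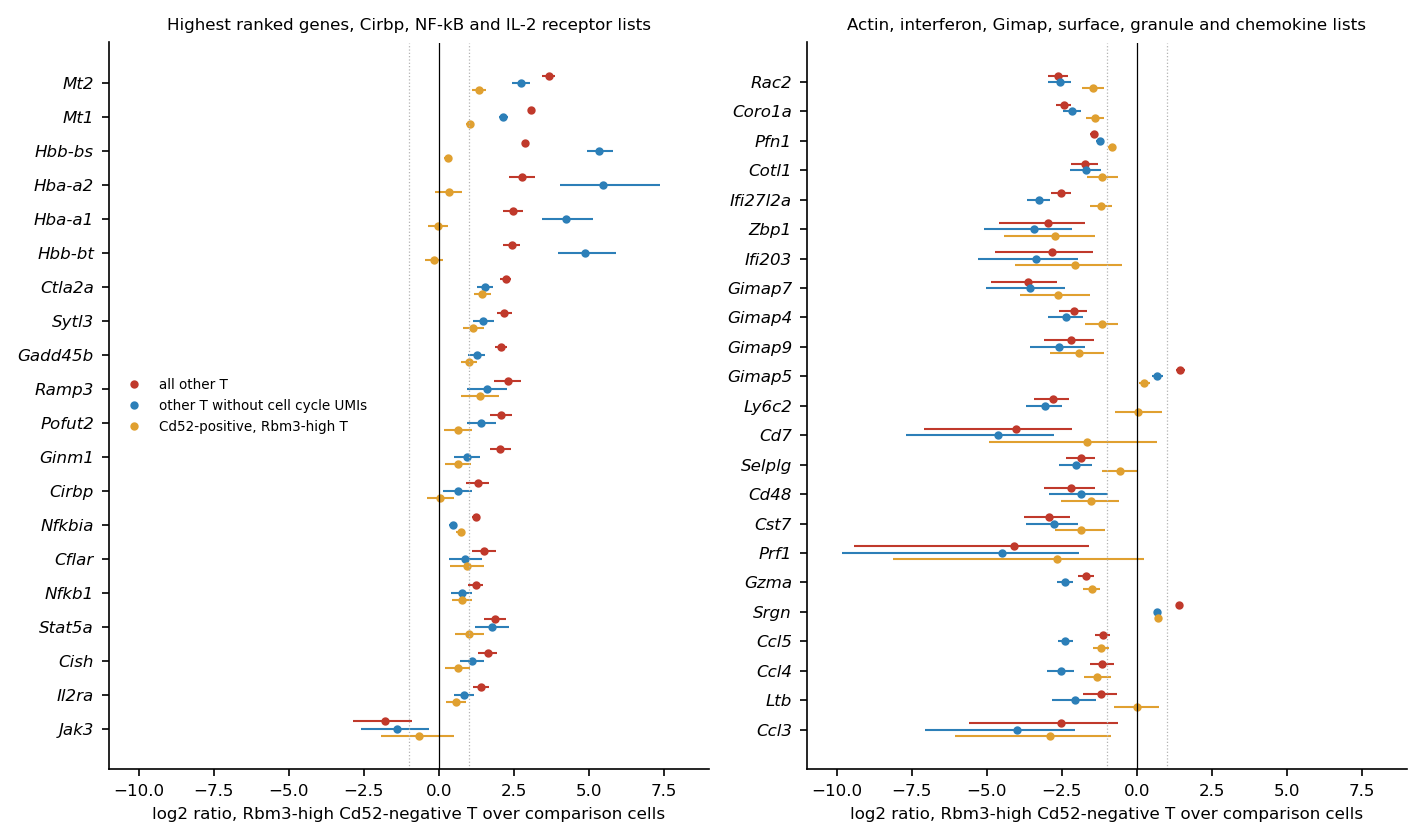
Log2 ratios of summed CPM (x axis) of genes named by rank or list (y axis) in Rbm3-high, Cd52-negative T cells over all other T cells (red), over other T cells when both sets lack UMIs of 6 cell cycle genes (blue), and over Cd52-positive, Rbm3-high T cells (yellow), with exact 95% intervals and dotted lines at 2-fold. Mt2 and Mt1 lie above 2-fold in all 3 comparisons, Cirbp lies at 0.05 over the Cd52-positive, Rbm3-high cells, and Coro1a and Rac2 are more than 2-fold lower in all 3.

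Genes for the actin cytoskeleton were all lower by point estimate. Of 25 compared, 15 were at least 2-fold lower and none had a ratio above 0, with a median of -1.07. Coro1a, an actin-binding protein that T cells need to persist, was at 174 against 944 CPM (-2.44, -2.71 to -2.18), or 5.43-fold lower. Rac2, a GTPase that drives actin assembly in blood cells, was at 109 against 670 CPM (-2.61, -2.96 to -2.29), and the actin-monomer binder Pfn1 at 974 against 2649 CPM (-1.44, -1.56 to -1.33). Genes for leukocyte surface proteins other than Cd52 were low in part. Of 24 compared, 9 were lower and 1 higher (median -0.75), and the lower ones included Ly6c2 (-2.81), Cd7 (-4.02), Cd48 (-2.18) and the selectin ligand Selplg (-1.86). Of the 8 Gimap genes, which encode GTPases that sustain lymphocytes, 3 were lower and 1 higher. Gimap7 was at 11.2 against 139 CPM (-3.63, -4.85 to -2.65), Gimap9 and Gimap4 at -2.20 and -2.11, and Gimap5 at 690 against 254 CPM (1.44, 1.29 to 1.59). Without cycling cells, in the comparison given below, Gimap5 was at 0.69 and no Gimap gene was past 2-fold higher.

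Type I interferon-stimulated genes were mostly low, and cytotoxic and chemokine genes were low in part. Of 18 type I interferon-stimulated genes compared 11 were lower and none higher (median -1.13), among them Ifi27l2a at 114 against 651 CPM (-2.52, -2.85 to -2.20) and the nucleic acid sensor Zbp1 (-2.98). Of 9 cytotoxic granule genes 4 were lower, with Gzma, a granzyme, at 182 against 591 CPM (-1.70, -1.96 to -1.44), perforin (Prf1) at -4.10 from 1 UMI, and the protease inhibitor Cst7 at -2.93. Srgn, the proteoglycan core on which granule proteins are packed, was the 1 higher gene, at 2738 against 1035 CPM (1.40, 1.33 to 1.48), and with it the cytotoxic list summed to 4477 against 3581 CPM. Without cycling cells Srgn was at 0.66, under 2-fold, and the sum was lower, at 4379 against 5648 CPM. Of 13 cytokine and chemokine genes 6 were lower, including Ccl5 (-1.14) and Ccl4 (-1.15), though Ccl5 was at 1.60 among cells with Cd4 only, of which 5 were Rbm3-high and Cd52-negative. Of 12 genes of inhibitory and CD28 family receptors 5 were lower, with Lag3 (-2.24), Cd160 (-3.03) and Pdcd1 (-1.82) among them, and Cd200 (1.64) was higher. The median of this list was -0.15, near that of all genes, and without cycling cells 2 of 8 were lower (median 0.08). Of 17 genes of MHC class I presentation 4 were lower, a share near that of all genes, and 2 higher (median -0.27), and the immunoproteasome gene Psmb9 was at 23.8 against 167 CPM (-2.81) beside a higher H2-Q4 (1.42), a class I gene of the MHC. For Gzma and Ccl4 the direction turned in the cells with a Cd8a or Cd8b1 UMI, where the log2 ratios were 0.33 (-0.06 to 0.70) and 0.52 (-0.05 to 1.05), with intervals that held 0. Ccl4 also turned with up to 1 Cd52 UMI allowed (0.41, 0.19 to 0.63) and after thinning to 2000 UMIs (0.41, -0.000287 to 0.81).

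The lowest ratios were those of cell cycle genes. Of the 12 genes ranked lowest, 11 have roles in DNA replication, chromatin or division, among them Pclaf at 5.61 against 441 CPM (-6.30, -8.17 to -4.94), Mki67 at 2.81 against 183 (-6.03) and Top2a at 11.2 against 348 (-4.95). The remaining one was S100a9, a neutrophil marker (2.81 against 99.6 CPM). For its relative S100a8 the difference lay mostly in other T cells with 1 or 2 Cd3 UMIs, as given above. Of the list genes, 23 of 26 for DNA replication and G1/S and 27 of 30 for mitosis and G2/M were at least 2-fold lower, with medians of -2.69 and -3.53. A UMI of Mki67, Top2a, Birc5, Pclaf, Rrm2 or Tk1 was found in 18 of the 128 cells (14.1%) and in 292 of the 477 other T cells (61.2%). After thinning to 2000 UMIs the shares were 3.91% (1.28 to 8.88) and 45.9% (41.4 to 50.5). For scale, the thinned share was 2.21% (1.18 to 3.74) in B lymphocytes of the Naïve library, with a median of 2602 UMIs, and 5 of 20 among the cells of the ConA+TCDD library that were not lymphocytes and had at least 20 UMIs of S100a8 and S100a9 together. A single UMI can be free RNA, so cycling cells here means cells with such a UMI and not cells shown to divide. The comparison was repeated with the 110 and 185 cells in which none of these 6 genes had a UMI, a choice made after the data had been seen. These had median depths of 5099 and 5505 UMIs.

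Between cells without cell cycle UMIs the metallothioneins were higher too, and several of the groups above were again low. Of 3684 genes 2.42% were at least 2-fold higher and 10.2% lower, with a median ratio near 0. Mt2 and Mt1 were at log2 ratios of 2.73 and 2.16, Ctla2a at 1.53, Sytl3 at 1.49, Gadd45b at 1.26 and Stat5a at 1.76, while Il2ra (0.84), Nfkbia (0.48), Cirbp (0.63), Ccr7 (0.86) and H2-Q4 (0.51) were under 2-fold. Of 57 genes chosen for naming that were at least 2-fold higher against all other T cells, 45 could be compared here, and 26 of these were under 2-fold. Of 71 that were lower, 49 could be compared and 7 were under 2-fold. The NF-kB list then had 1 gene of 18 past 2-fold, Gadd45b, with a median of 0.47, and the IL-2 receptor, STAT5 and SOCS list had 2 higher and 2 lower of 18 (median -0.17). In the list of naïve and homing genes none of 17 was higher and 4 were lower. Of the groups that were low above, 10 of 25 actin genes (median -0.86), 10 of 12 type I interferon-stimulated genes (-1.46), 10 of 24 surface genes (-0.73), 5 of 8 Gimap genes (-1.31), 4 of 7 cytotoxic genes (-1.46) and 5 of 8 cytokine and chemokine genes (-2.22) were at least 2-fold lower. All of these shares lay above the 10.2% of all genes. Of the cell cycle genes, 4 of 16 for DNA replication and G1/S and none of 8 for mitosis were lower in this comparison (medians -0.47 and 0.18).

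Stress programmes differed gene by gene. Of 16 hypoxia response genes 4 were higher and none lower (median 0.62), with Hif1a, the oxygen-regulated transcription factor, at 543 against 302 CPM (0.85) and the glucose transporter Slc2a1 at 1.02. Of 12 p53 targets 5 were higher (median 0.59), with Perp at 1.90 (-0.00894 on 2 UMIs in the cells with Cd8) and Bbc3, a killer protein of the BCL2 family, at 1.89. Without the globin-rich cells 2 of the 16 hypoxia genes were higher. Without cycling cells 1 of 9 hypoxia genes (median 0.33) and 1 of 7 p53 targets (median -0.00289), Perp at 1.37, were higher. Of 24 immediate early genes 4 were higher (median 0.22), and of 12 integrated stress response genes 2 (median 0.26). Without cycling cells none of 20 and none of 10 were higher, with medians of -0.17 and 0.06. Of 19 unfolded protein response genes 1 was higher and 3 were lower (median -0.08), no larger shares than those of all genes. The chaperone gene Hspa5 was at 0.94 and Dnajb9 (1.58) was the higher one. The disulfide isomerase gene Pdia4 (-3.19) and Sdf2l1 (-2.09) were among the lower. Without cycling cells Dnajb9 was at 1.10 on 43 UMIs, too few to be counted. Of the 17 genes of this list then compared none was higher and 2 were lower, a share near the 10.2% of all genes. Heat shock genes had 4 lower and 1 higher of 22, no larger a share lower than the 21.9% of all genes, with the mitochondrial chaperonin gene Hspe1 at -1.52. Without cycling cells 2 of 21 were lower and none higher (median 0.02). In the list of AhR, its partners and its targets none of 6 compared genes was past 2-fold, and Ahr itself was at 32.3 against 24.7 CPM (0.39, -0.32 to 1.03).

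Few genes of ribosomal proteins and ribosome biogenesis were past 2-fold. Cytosolic ribosomal protein RNA made up 414623 CPM against 360658 CPM in the other T cells, and of 90 ribosomal protein genes none was past 2-fold higher and 1 was lower (median 0.14). Odc1, the first enzyme of polyamine synthesis, was at 512 against 237 CPM (1.11, 0.94 to 1.28), and the ribosome assembly gene Nop16 at 1.04, the 2 of 25 genes of the Myc and ribosome biogenesis list that were past 2-fold higher, while Bop1 (-1.05) was lower. Of 22 genes of nucleotide and one-carbon synthesis 5 were lower, a share near the 21.9% of all genes, and none higher (median -0.54), and without cycling cells 1 of 18 was lower (median 0.22). Among RNA-binding proteins, none of 16 SR splicing factor and CLK kinase genes was past 2-fold (median 0.32), while among 19 hnRNP genes Hnrnpdl was higher (1.27, 1.13 to 1.41) and 2 were lower, Hnrnpul2 (-1.47) and Hnrnpa2b1 (-1.27, -1.44 to -1.11). Without cycling cells none of the 19 was past 2-fold, with Hnrnpdl at 0.80, Hnrnpul2 at -0.999 and Hnrnpa2b1 at -0.92.

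**Figure D4:**
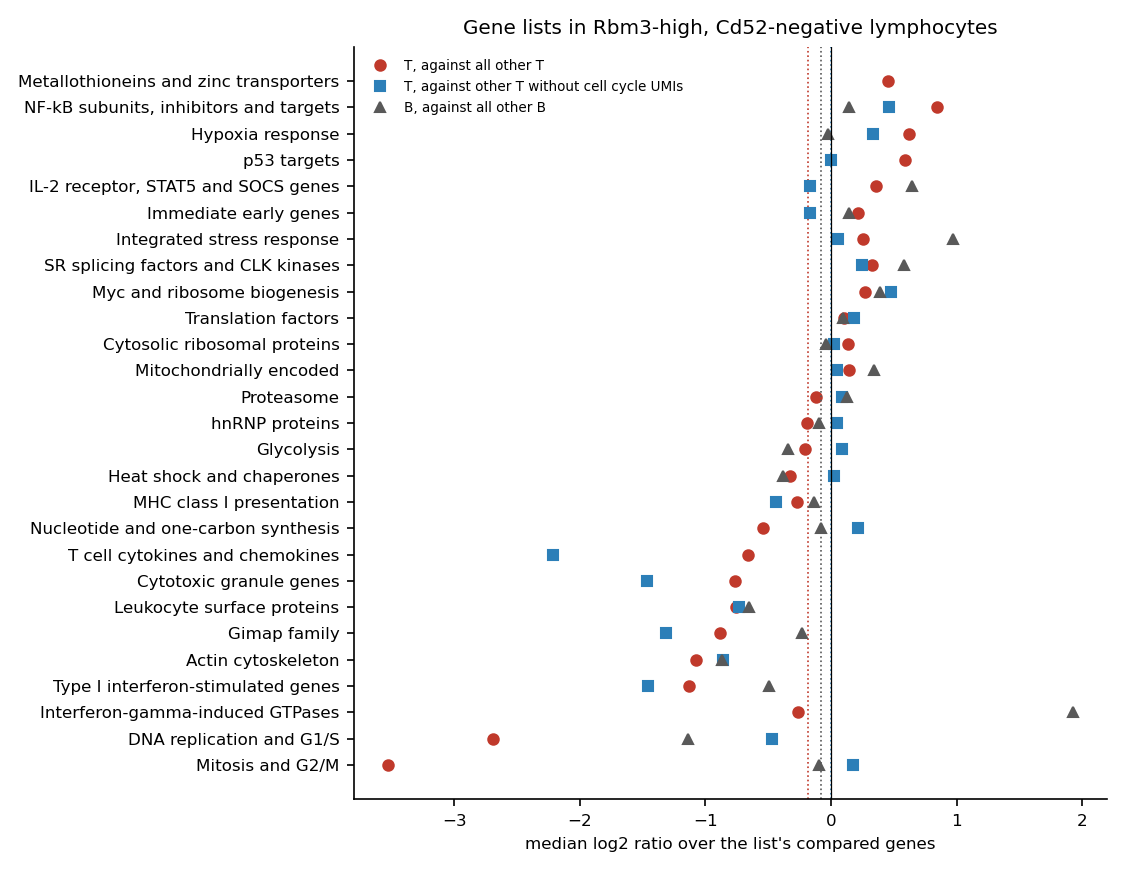
Median log2 ratio over the compared genes of each list (x axis) for Rbm3-high, Cd52-negative T cells over all other T cells (red circles), the same without cells that have cell cycle UMIs (blue squares), and B cells over all other B cells (grey triangles), for 27 lists, each where at least 5 genes were compared. Dotted lines give the medians over all genes, and the cell cycle lists lie at -2.69 and -3.53 in the red circles and at -0.47 and 0.18 in the blue squares, while the type I interferon, actin and Gimap lists lie below -0.8 in both.

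The CD4 and CD8 makeup could be read in few cells. Of the 128 T cells 27 had a Cd8a or Cd8b1 UMI and no Cd4 (21.1%, 14.4 to 29.2), 5 had Cd4 only, 1 had both and 95 had neither (74.2%, 65.7 to 81.5), whereas 39.8% (35.4 to 44.4) of the other T cells had neither. After thinning to 2000 UMIs, a Cd8a or Cd8b1 UMI was found in 11.7% (6.71 to 18.6) against 34.6% (30.3 to 39.1), and Cd4 in 3.13% (0.858 to 7.81) against 4.82% (3.08 to 7.15). The B lymphocytes of the library, which should lack them, had thinned shares of 1.19% for Cd8a, 1.98% for Cd8b1 and 0% for Cd4. Cd8 RNA was thus scarcer in the Rbm3-high, Cd52-negative cells beyond counting error after thinning to the same UMI total. For Cd4, the thinned intervals overlapped, whereas the level was 8.42 CPM (3.09 to 18.3) on 6 UMIs against 25.7 (21.8 to 30.2), and without thinning Cd4-only cells were 3.91% (1.28 to 8.88) against 14.3% (11.2 to 17.7) in deeper cells.

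Set against the 103 Cd52-positive, Rbm3-high T cells of the library, 0.744% of the 3359 genes compared were at least 2-fold higher and 5.54% lower. These 103 cells are also part of the 477 other T cells used above. Gzma (-1.51, -1.80 to -1.23) and Rac2 (-1.46, -1.84 to -1.09) were lower, while Ly6c2 (0.05, -0.74 to 0.83) was not. The levels of Mt1 followed both limits: it was at 1949 CPM in the Cd52-negative, Rbm3-high cells, 954 in the Cd52-positive, Rbm3-high, 243 in the 33 Cd52-negative, Rbm3-low and 93.2 in the 341 Cd52-positive, Rbm3-low cells. Mt2 had the same order, with 617, 244, 32.9 and 12.5 CPM. Gadd45b was at 439, 218, 184 and 81.2 CPM, Ccr7 at 1404, 844, 809 and 522, and Coro1a at 174, 456, 427 and 1052. Gimap7 was at 11.2, 68.7, 46.0 and 155 CPM. By point estimate the Cd52-negative, Rbm3-high cells stood at the end of the order for each of these genes. The cells that met 1 of the 2 limits lay between, as the plot of levels by cell set shows. The 33 Cd52-negative, Rbm3-low cells held 152118 UMIs in all. Their levels of Mt2 and Gimap7 thus rest on few molecules, and their place in the order is uncertain. The share of cells with a cell cycle UMI had the same ends, with 14.1%, 41.7%, 36.4% and 69.5% in the same 4 sets (3.91%, 27.2%, 21.2% and 54.0% after thinning), and so moved with these levels. The median depth was 5328, 6347, 4243 and 11154 UMIs, highest in the Cd52-positive, Rbm3-low cells. The part of both in the order was not tested.

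**Figure D5:**
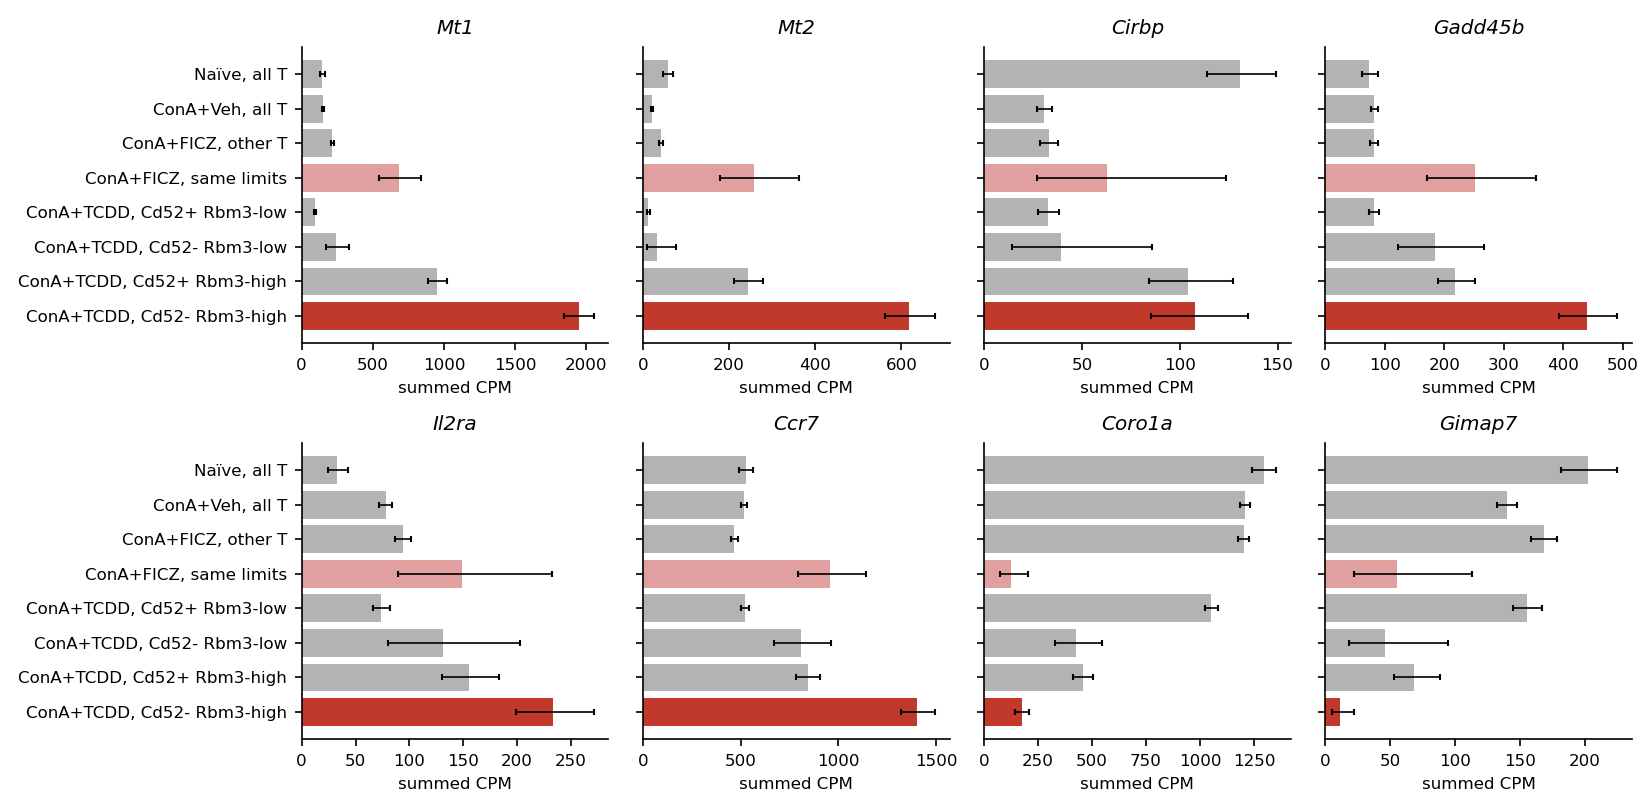
Summed CPM (x axes) of 8 genes in T lymphocytes of each set (y axis), with exact 95% Poisson intervals, the Rbm3-high, Cd52-negative cells of ConA+TCDD in red and cells within the same limits in ConA+FICZ in pink. Mt1 is at 1949 CPM in red and 682 in pink, Coro1a at 174 and 125, and Cirbp is highest in the Naïve T cells.

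By their other genes the cells lay partly together. On 20 principal components computed without Cd52, Rbm3 and the lineage genes of the limits, 44.7% of the 15 nearest neighbours of a Rbm3-high, Cd52-negative T cell were such cells, against 21.2% of all T cells. The neighbours of Cd52-positive, Rbm3-high cells held 33.0% of them, those of Cd52-negative, Rbm3-low cells 26.3%, and those of Cd52-positive, Rbm3-low cells 4.85%. Among cells without cell cycle UMIs the share was 51.3% against 37.3% of such cells. In B the share was 17.5% against 7.54%. It was 9.89% around Cd52-positive, Rbm3-high B cells, 10.7% around Cd52-negative, Rbm3-low and 1.01% around Cd52-positive, Rbm3-low B cells. Such cells were the majority of the neighbours for 47 of the 128 T cells and 0 of the 19 B cells. With every cell thinned to 2000 UMIs, the shares in T were 45.5% around the Rbm3-high, Cd52-negative cells, 36.2% around Cd52-positive, Rbm3-high cells, 32.7% around Cd52-negative, Rbm3-low cells and 12.5% around Cd52-positive, Rbm3-low cells.

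The ConA+FICZ library, which the limits did not use for choosing the cells, held 16 T lymphocytes within the same limits. Against the other 486 T cells of that library Mt1 was at 682 against 216 CPM (log2 ratio 1.66, 1.33 to 1.97) and Mt2 at 259 against 42.5 (2.61, 2.04 to 3.13). Coro1a (125 against 1202 CPM, -3.26), Rac2 (-2.76), Ifi27l2a (-3.15) and Gzma (-2.72) were lower, and Gadd45b (1.62), Sytl3 (1.62), Ramp3 (3.62), Srgn (1.10) and Ccr7 (1.03) higher. Of the 22 Sytl3 UMIs in these 16 cells, 1 cell held 12. Ctla2a, among the genes ranked highest in ConA+TCDD, was at a log2 ratio below 0 there (-0.41, -1.63 to 0.58). Gimap5 was lower there by point estimate (-0.57, -1.36 to 0.11) and Cst7 was near equal (-0.09, -0.80 to 0.55). Over all 7551 genes of that comparison 14.8% were at least 2-fold higher and 16.5% lower. Without cycling cells, with 15 and 213 cells left, 5.01% of 3733 genes were higher and 19.4% lower. Of the 12 genes ranked highest in the ConA+TCDD cells 8 had enough UMIs for a direction, of which 7 were above 0 and 6 past 2-fold, and all 12 ranked lowest were at least 2-fold lower, 11 of them genes of cell division. Only 1 of the 16 cells had a cell cycle UMI, against 56.2% of the others.

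The 19 B lymphocytes gave few UMIs (74593 in all), and a ratio of 2-fold can arise from a handful of molecules. Of 3697 genes 8.52% were at least 2-fold higher and 18.9% lower than in the other 233 B cells. Cd200, which encodes a surface glycoprotein that restrains myeloid cells, was at 429 against 61.9 CPM (log2 ratio 2.79, 2.18 to 3.37), and the co-stimulatory ligand Cd86 at 282 against 39.3 (2.84, 2.06 to 3.56). All 7 interferon-gamma-induced GTPase genes compared were at least 2-fold higher (median 1.93), among them Gbp2 at 509 against 131 CPM (1.96, 1.42 to 2.46), with the interferon regulatory factor Irf1 at 1.85. Cirbp, at 255 against 65.4 CPM (1.96, 1.18 to 2.67), was among the 12 genes ranked highest, and Ahr was at 214 against 39.3 CPM (2.45, 1.56 to 3.25). Mt1 was at 188 against 26.0 CPM (2.85, 1.87 to 3.74) on 14 UMIs, of which 1 cell held 8, and Mt2 had 1 UMI. The integrated stress response had 5 of 10 genes higher (median 0.97), including the amino acid transporter genes Slc3a2 (1.68) and Slc7a5 (1.98). The type I interferon-stimulated genes Bst2 (-3.89) and Ifi27l2a (402 against 2289 CPM, -2.51) were low beside the higher GTPase genes.

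Genes of resting B cells were low in the 19 cells. Of 26 compared 15 were at least 2-fold lower and none higher (median -1.12), among them Bank1 (-3.82), an adaptor of B cell receptor signalling, Ly6d (-1.98) and Cd37 (-1.66). Cd79a was also low (509 against 1680 CPM, -1.72), but it was one of the genes that chose B cells. Coro1a (188 against 995 CPM, -2.41, -3.28 to -1.66), Rac2 (-2.29) and Pfn1 (-1.76) were low as in T, and 8 of 25 actin genes were past 2-fold lower (median -0.87). Blvrb, Tmem160, Ncf4, Coro1b, Smc1a and Dbnl had no UMI in the 19 cells. At a floor of 3 counts in the B cells, Blvrb was at least 5.12-fold lower than in the other B cells. A UMI of the 6 cell cycle genes was found in 4 of the 19 cells (21.1%) and in 31.8% of the other B cells, which were deeper. After thinning the shares were 21.1% (6.05 to 45.6) and 18.9% (14.1 to 24.5), with overlapping intervals. Of 15 mitosis genes 3 were lower (median -0.09), a share near the 18.9% of all genes lower in B. In T it was 27 of 30. The difference between T and B was not tested.

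T and B cells shared part of their genes. Of 3527 genes compared in both lineages, 111 were at least 2-fold higher in T and 304 in B, and 47 were higher in both, which is 42.3% of the T genes and 15.5% of the B genes. At least 2-fold lower were 661 in T and 632 in B, with 283 in both, or 42.8% and 44.8%. Of all these genes 8.62% were higher and 17.9% lower in B, the shares that the T genes are read against, and 3.15% were higher and 18.7% lower in T, the shares for the B genes. Emp3, a small membrane protein, was lower in T (-1.60, -2.11 to -1.13) and higher in B (1.60, 1.12 to 2.05). It was 1 of 15 genes past 2-fold in opposite directions, and with Btla and Aida 1 of 3 for which neither interval held 0. After thinning, Btla in B was at -0.80 (-3.90 to 1.16) on 2 UMIs, too few for a direction.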

How the data were processed

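Single-cell RNA was measured in 1 library for each of 4 conditions. Per the labels and the file headers, the authors made the deposited UMI counts with Cell Ranger 3.0.2 on mm10, and no normalized values were used. Cells were sorted into T and B lymphocytes and into Rbm3-high, Cd52-negative cells by the limits given above, and the cells, the 50 gene lists and the comparisons were chosen with earlier results of these data known. UMIs were summed over cells and divided by the sum of all UMIs. A gene was compared with at least 50 UMIs over both sets and counted as higher or lower from 2-fold, with 0 set to a floor of 3 counts in a ratio. Named genes were the 12 highest and the 12 lowest by the bound of the 95% interval nearest to 0 among genes of at least 100 UMIs, without receptor segments and the genes of the limits, then Mt1, Mt2, Cirbp, Rbm3 and Cd52, then up to 4 genes of each list by the same bound. Genes named outside these, such as Mtf1, Trac, Lck, Cd8a, Bop1 and Aida, were chosen as background or after their values were seen. Intervals were Poisson for CPM, Clopper-Pearson for shares and exact binomial for ratios. Cells of 1 library are not replicates, so no p-value was computed. Doublets were in effect not removed. Alternatives changed the limits, the depth, the scaling, the gene minimum and the cells compared. The code was tested on simulated data. Counting and intervals used scipy 1.17.1 and numpy 2.4.6 in Python 3.11.15 with pandas 2.3.3, neighbours and doublet scores scikit-learn 1.9.0 and scanpy 1.11.5, and plots matplotlib 3.10.9. Some genes are not reported here.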

Additional observations from a re-analysis of the deposited data

How the results depend on the processing

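No paired analysis was possible because each condition was 1 library, and no replicate could be left out. The share of T lymphocytes within the limits, 21.2%, was 15.9% from 2000 CPM of Rbm3, 30.6% with up to 1 Cd52 UMI, 25.6% after thinning to 2000 UMIs and 14.8% from 3 Cd3 UMIs, the last chosen after the data had been seen. The B share, 7.54%, was 4.52% in cells of at least 4000 UMIs and 12.3% with up to 1 Cd52 UMI. Counts of genes past 2-fold are given with the number of genes compared in parentheses. In T, 414 were higher and 1588 lower (7258), against 101 and 364 after thinning (2314), 122 and 681 from 200 UMIs per gene (3556), 813 and 297 in Cd4 cells (2583) and 89 and 377 without cycling cells (3684), with 269 higher by the mean of cell CPM (7258) and 4610 with no minimum (13976). As a share of genes compared, the higher genes were 5.7%, 4.36% after thinning, 31.5% in Cd4 cells and 2.42% without cycling cells. In B, 315 were higher and 697 lower (3697), against 64 and 148 after thinning (1016), 39 and 205 from 200 UMIs (1118) and 167 and 352 without cycling cells (2083), with 6520 higher with no minimum (11705) and 449 lower in cells of at least 4000 UMIs (3206). A total without ribosomal and mitochondrial genes raised the T median by 0.13, from -0.19 to -0.06, with 603 higher and 1385 lower. Higher genes were then 30.3% of those past 2-fold, against 20.7%, and 15.3% by the mean of cell CPM.

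Of 1976 values of 128 named T genes that were past 2-fold, 1942 had the direction reported, as did 1092 of 1097 values of 92 B genes. Log2 ratios turned in T with at least 4000 UMIs or 2000 CPM of Rbm3 (Cd74, -0.54 and -0.39), with up to 1 Cd52 UMI (Ccl3 0.46, Ccl4 0.41), after thinning (Ccl3 0.95, Ccl4 0.41, Egln3 -0.0469, Sgk1 -0.68, Tnfsf10 -0.20) and with 3 Cd3 UMIs (Cd74 -0.84, S100a8 0.41). In Cd8 cells Ccl3 (0.10), Ccl4 (0.52), Ctla2a (-0.24), Gzma (0.33), Perp (-0.00894), Ramp3 (-0.18), S100a8 (0.90), Sesn1 (-0.0793) and Tnfsf10 (-0.33) turned. In Cd4 cells, with 5 cells in the smaller set, Ccl5 (1.60), Cd74 (-0.48), Chordc1 (0.34), Cotl1 (0.44), Ifi203 (0.83), Irf8 (-1.11), Itgal (0.63), Pfkl (1.28) and Selplg (0.29) turned. Without cycling cells Ccna2 (0.0366), Cd74 (-0.0371), Hist1h2ap (0.0366) and Ube2c (0.30) turned, and without the globin-rich cells Hbb-bt (-1.69). In B, thinning turned Btla (-0.80), Il21r (0.0887), Itga4 (-0.43), Ran (0.25) and Sesn1 (-0.63). The cause of these turns was not tested. Over its alternatives Mt1 in T stayed between 1.01 and 3.68, Mt2 between 2.10 and 4.48 and Cirbp between 0.63 and 2.85, and Mt1 in B between 1.05 and 3.96.

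Longer transcripts had somewhat higher ratios, with medians of -0.39 for the shortest of 5 length classes of T genes and 0.02 for the longest, across genes that are not replicates. The 19 B cells held 74593 UMIs in all, which limits the precision of every B ratio.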
